A study of Mus musculus with 8 samples.

Results

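The 32 genes described here encode factors that build ribosomes: subunits of RNA polymerase I, nucleolar organisers, small nucleolar ribonucleoprotein (snoRNP) core proteins, and assembly factors of the small and large subunits. They were chosen by name as known ribosome biogenesis genes, with earlier results of these data known; the rule itself uses no measured difference. All 32 had a probe set annotated to that gene alone, among 18193 genes with such a probe set, and all 32 were among the 10762 genes tested. Where a gene had several, its brightest probe set by mean value was used. Every member lay above the array median on all 8 arrays, so none was tested because of high values in 1 genotype.

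Expression was profiled in lymphoid-myeloid multipotent progenitors sorted from bone marrow of female mice on the C57BL6 background, aged 8 to 10 weeks. The sort kept lineage negative cells that carried Sca-1, cKit and CD48 and lacked CD150. Of these, 4 samples, 1 array each, were FLT3-ITD, the internal tandem duplication that makes the receptor tyrosine kinase FLT3 signal without ligand, and 4 samples were WT; the labels name no other allele or agent. Whether the duplication was heterozygous or homozygous, how it was introduced and whether mice were pooled are not stated in the labels. In each genotype the samples were numbered 1, 2, 3 and a further 1 tagged 037, called 037 here. That tag is not explained, so each 037 sample may repeat sample 1. Separate mice per sample are not stated either, so a p-value here covers the spread among samples that may be technical repeats.

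Ribosome production begins in the nucleolus, where RNA polymerase I transcribes the ribosomal RNA precursor. SnoRNPs of the box C/D class guide its methylation and those of the box H/ACA class its pseudouridylation, while assembly factors fold, cut and export the future small and large subunits. The pathway is among the best known targets of MYC transcription factors and rises with cell growth, and nucleophosmin, encoded by Npm1, is frequently mutated in human acute myeloid leukaemia together with FLT3-ITD.

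Across the series, 65 of 10762 genes passed the test (46 higher and 19 lower in FLT3-ITD; limma, Benjamini-Hochberg adjusted p below 0.05). A pair of arrays stood somewhat apart; 0 members passed with either of them left out. FLT3-ITD 1 had the lowest correlations with the other arrays, 0.948 to 0.959, against a range of 0.948 to 0.981 over all pairs. FLT3-ITD 037 had the largest difference between 3′ and 5′ Gapdh probe sets, a sign of RNA or amplification length, at 2.99 log2 units, against 1.88 to 2.29 on the other FLT3-ITD arrays and 1.82 to 2.08 on the WT arrays. Of the gate markers, Kit differed by -0.47 ± 0.17 (log2 FLT3-ITD minus WT ± SE, limma adjusted p = 0.427) and Cd48 by 1.06 ± 0.13 (limma adjusted p = 0.0074). Slamf1, the CD150 gene, averaged 4.51 in FLT3-ITD and 4.73 in WT and lay below the filter on low values. Of the progenitor genes, Flt3 differed by -1.17 ± 0.20 (limma adjusted p = 0.0406). Cd34 differed by -0.08 ± 0.12 and Ptprc by 0.002 ± 0.16 (limma adjusted p = 0.871 and 0.998). Of the markers of other cell types, 4 of 5 tested genes of the dendritic list were higher by 3.13 to 4.12. These were the MHC class II genes H2-Aa, H2-Ab1 and H2-Eb1 and the invariant chain gene Cd74. The remaining tested gene of that list, Siglech, differed by -0.02 ± 0.11 (limma adjusted p = 0.970), and Itgax lay below the filter. Both tested erythroid genes were lower, with differences of -2.76 for Hbb-b2 and -2.10 for Slc4a1. Slc4a1 averaged 5.09 in FLT3-ITD and 7.19 in WT. Array medians were 5.98 to 6.05, so its WT values alone met the filter. None of the tested neutrophil (3), B (1), T or NK (3) and macrophage (2) genes passed. The neutrophil differences were nevertheless large, at -2.39 for Ngp, -1.34 for Camp and -0.77 for Ltf (limma adjusted p = 0.255, 0.552 and 0.482), with wide replicate spread. The part of these markers in the values below was not tested.

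No ribosome biogenesis gene differed between FLT3-ITD and WT progenitors by the test, and the differences were small. Of 32 members, 0 passed (0.604% of all tested genes did), with limma adjusted p between 0.609 and 0.985. At an unadjusted p below 0.05, 0 members were higher and 0 lower, where 5.74% and 3.84% of all tested genes were. The log2 differences, FLT3-ITD minus WT, ran between -0.21 for Rrp9 and Polr1a and 0.41 for Pes1, a 1.33-fold difference. Their median was 0.05, against 0.02 over all tested genes, and 21 of 32 (65.6%) were positive, against 53.7% of all tested genes. These values moved both ways with single arrays. Without WT 2, WT 3 or FLT3-ITD 037, 17 of 32 (53.1%) were positive, when 53.3%, 53.1% and 51.0% of all tested genes were. Without FLT3-ITD 1 or FLT3-ITD 3, 24 of 32 (75%) were positive, when 56.1% and 53.1% of all tested genes were. The median was 0.01 without WT 2 or without FLT3-ITD 2 and 0.02 without WT 3 or without FLT3-ITD 037, and it reached 0.07 without FLT3-ITD 3 and 0.08 without WT 1. In bulk RNA of this kind, fewer cells of a type and less RNA per cell cannot be told apart.

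The size of difference that these arrays could leave undetected differed between members. The median absolute difference of members was 0.101 log2 units, against 0.164 over all tested genes. Members were also brighter, with a median mean value of 9.53 against 7.74, and the part of brightness was not tested. In 28 of 32 members the absolute difference was smaller than the pooled standard deviation (SD) of replicates, as in 72.0% of all tested genes. In all 32 it was smaller than the wider of the 2 within-genotype ranges. The share of all tested genes was not computed for that count. The 95% interval of the difference lay within a 2-fold change either way for 30 members (81.8% of all tested genes). It lay within 1.41-fold for 14 members, a count whose share over all tested genes was not computed. The intervals of Pes1, from -0.33 to 1.14, and Ftsj3, from -0.53 to 1.02, reached past 2-fold. Among all tested genes, the smallest difference that passed the test was 0.701 log2 units; no limit of detection was computed for the members.

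**Figure D1:**
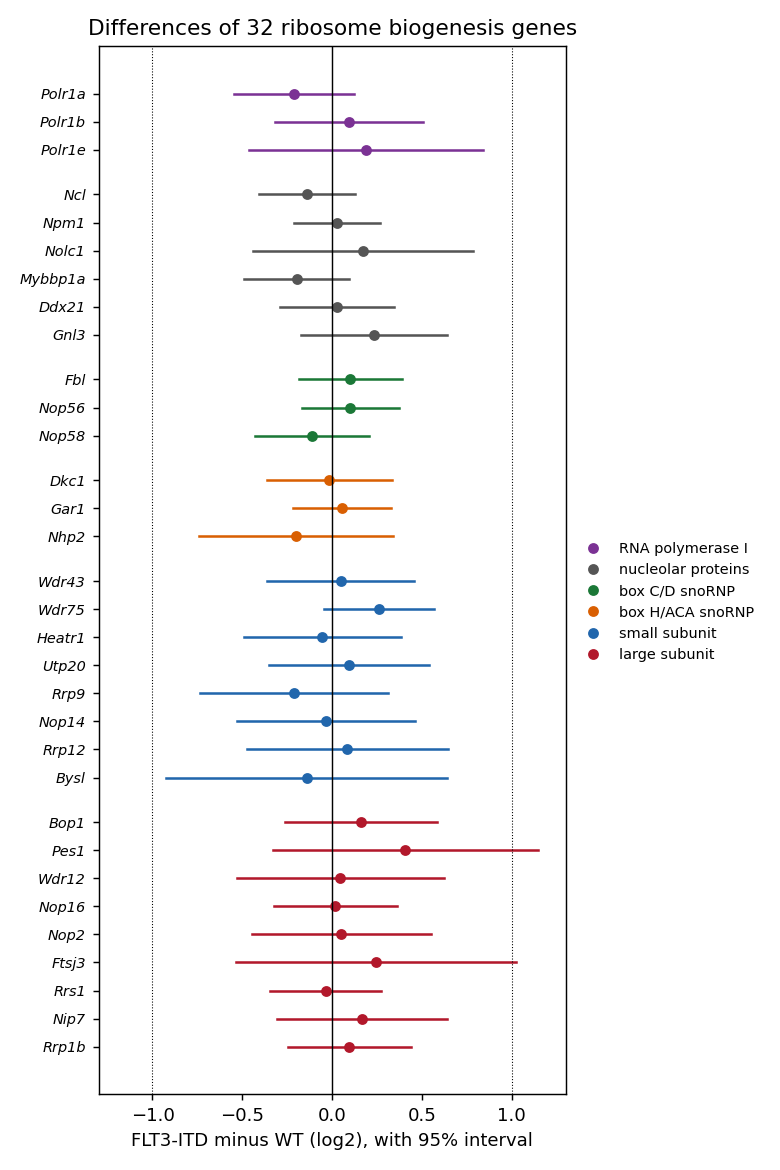
Log2 difference, FLT3-ITD minus WT, of the 32 ribosome biogenesis genes by role, with bars for the 95% interval from limma (4 arrays per genotype). All 32 intervals include 0, and Pes1 has the largest difference at 0.41.

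RNA polymerase I was represented by 3 subunits. Polr1a encodes the largest catalytic subunit. It read 8.50, 8.61, 8.53 and 8.91 (log2 RMA value) in FLT3-ITD samples 1, 2, 3 and 037, and 8.64, 8.86, 9.09 and 8.80 in WT samples 1, 2, 3 and 037. FLT3-ITD 037 lay above WT 1, 2 and 037, so the genotypes overlapped, although the other FLT3-ITD samples were all below every WT sample. Without FLT3-ITD 037, 9.67% of all tested genes had no overlap in either direction. With all samples, the difference of Polr1a was -0.21 ± 0.15 (SE, limma adjusted p = 0.728). Its other probe sets above the filter differed by 0.12 and 0.27, the opposite direction, and the mean over all its probe sets by 0.07. Polr1b, the second largest subunit, differed by 0.09 ± 0.18, and Polr1e, a subunit that helps the enzyme initiate, by 0.19 ± 0.29. Polr1e varied widely within both genotypes, averaging 7.75 ± 0.46 in FLT3-ITD and 7.56 ± 0.47 in WT (SD, n = 4 each).

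A further 6 members organise or act in the nucleolus. Ncl, which encodes nucleolin, an abundant RNA-binding protein of the nucleolus, read 12.85, 12.87, 12.89 and 12.63 in FLT3-ITD samples 1, 2, 3 and 037, and 13.06, 12.89, 12.96 and 12.89 in WT samples 1, 2, 3 and 037. It was the only member whose genotypes did not overlap, lower in FLT3-ITD, with the nearest pair of samples equal to 2 decimals. That is 1 of 32 members lower without overlap, against 2.44% of all tested genes, and 0 members higher without overlap, against 3.77%. The difference was -0.14 ± 0.12 (limma adjusted p = 0.769), and the genotypes overlapped in the other 4 probe sets of Ncl, with differences of -0.14, -0.07, 0.02 and 0.18. With arrays centred on their medians, the chosen probe set overlapped too.

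Npm1, whose product nucleophosmin is a scaffold and chaperone of the nucleolus, had the smallest replicate spread of all members, with a pooled SD of 0.054. It read 13.19, 13.21, 13.25 and 13.29 in FLT3-ITD samples 1, 2, 3 and 037, and 13.28, 13.15, 13.17 and 13.23 in WT samples 1, 2, 3 and 037. The genotypes lay on top of each other, and the difference was 0.03 ± 0.11 (interval -0.21 to 0.27, limma adjusted p = 0.959).

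Mybbp1a, a nucleolar protein that binds MYB, read 10.54, 10.63, 10.43 and 10.49 in FLT3-ITD samples 1, 2, 3 and 037, and 10.94, 10.58, 10.78 and 10.57 in WT samples 1, 2, 3 and 037. WT 1 and WT 3 were above all FLT3-ITD samples, while WT 2 and 037 fell between FLT3-ITD 1 and 2, and the difference was -0.20 ± 0.13 (limma adjusted p = 0.701). Gnl3 encodes nucleostemin, a GTPase of the nucleolus studied in stem cells. It read 9.49, 9.88, 9.63 and 9.74 in FLT3-ITD samples 1, 2, 3 and 037, and 9.88, 9.19, 9.51 and 9.21 in WT samples 1, 2, 3 and 037. Here WT 1 stood at the height of the highest FLT3-ITD sample while WT 2 and 037 were below all of them, for a difference of 0.23 ± 0.18 (limma adjusted p = 0.742). Ddx21, an RNA helicase, differed by 0.03 ± 0.14, and Nolc1, a chaperone of snoRNPs, by 0.17 ± 0.27.

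The box C/D snoRNP is formed around the methyltransferase fibrillarin. Its gene Fbl differed by 0.10 ± 0.13, and Nop58, a core protein of the same particle, by -0.11 ± 0.14. Nop56, the other core protein, read 11.78, 11.79, 11.78 and 12.05 in FLT3-ITD samples 1, 2, 3 and 037, and 11.79, 11.64, 11.74 and 11.82 in WT samples 1, 2, 3 and 037. Only FLT3-ITD 037 stood above the WT range, and the difference was 0.10 ± 0.12 (limma adjusted p = 0.836). For the box H/ACA snoRNP, Dkc1, the pseudouridine synthase dyskerin, differed by -0.01 ± 0.15. Gar1, a core protein of that particle, read 11.71, 11.61, 11.58 and 11.61 in FLT3-ITD samples 1, 2, 3 and 037, and 11.74, 11.39, 11.64 and 11.52 in WT samples 1, 2, 3 and 037. The FLT3-ITD samples lay inside the wider WT range, with a difference of 0.06 ± 0.12 (limma adjusted p = 0.927). Nhp2, a further core protein, read 9.90, 10.74, 10.79 and 10.73 in FLT3-ITD samples 1, 2, 3 and 037, and 11.18, 10.47, 10.64 and 10.68 in WT samples 1, 2, 3 and 037. The lowest value, in FLT3-ITD 1, and the highest, in WT 1, were both set apart from the other samples, which overlapped, and the difference was -0.20 ± 0.24 (limma adjusted p = 0.839).

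**Figure D2:**
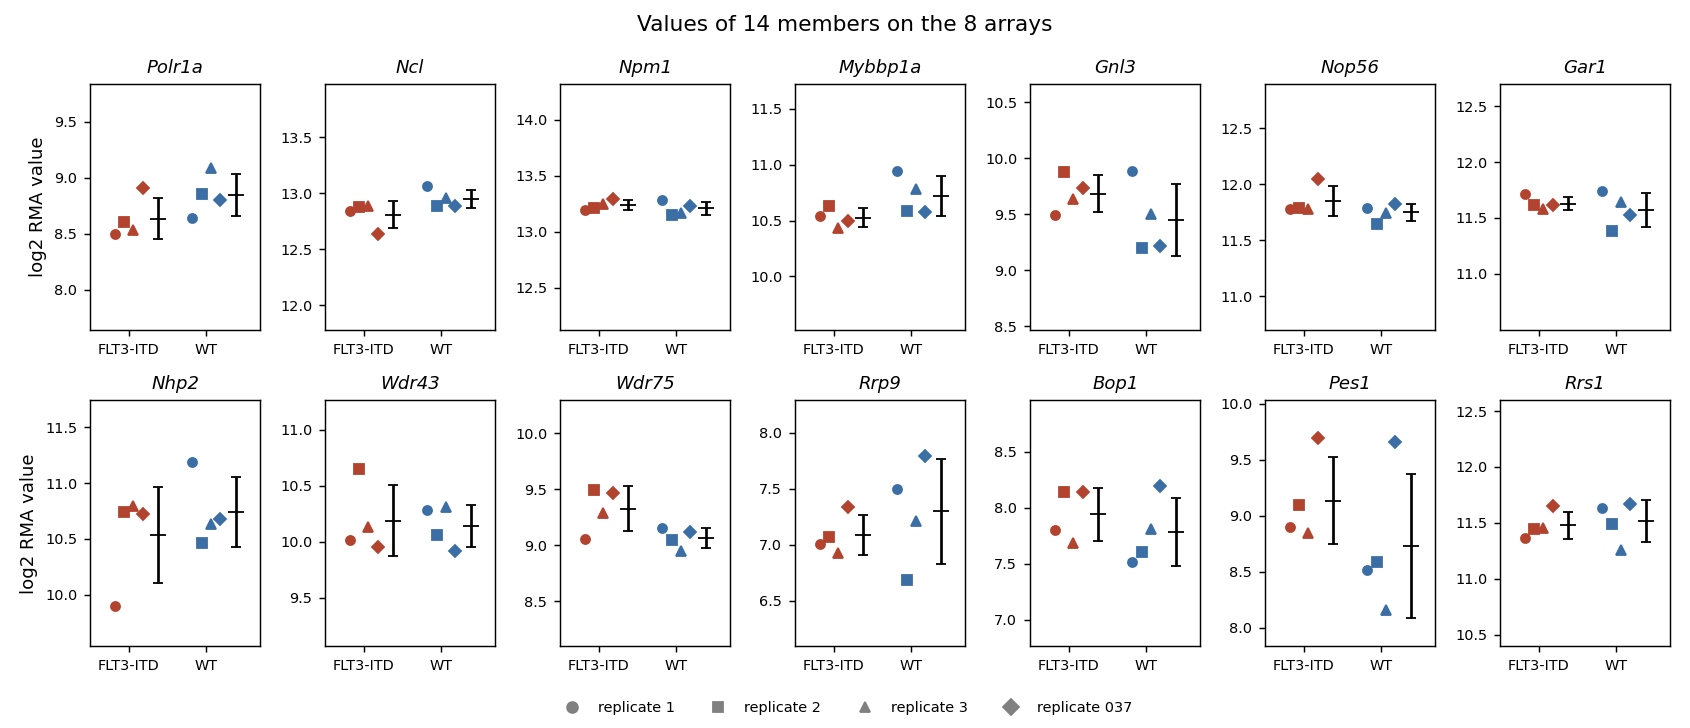
Log2 RMA value in each of the 4 FLT3-ITD and 4 WT samples for the 14 members with values by sample in the text, with the mean ± SD per genotype. Only for Ncl do the genotypes not touch, and Pes1 shows its highest values in both 037 samples.

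The 8 next members assemble the small subunit. Wdr43, Wdr75 and Heatr1 belong to the complex that joins the nascent precursor first and is needed for its transcription. Wdr75 had the smallest p of all members, 0.0883 unadjusted. It read 9.06, 9.49, 9.29 and 9.47 in FLT3-ITD samples 1, 2, 3 and 037, and 9.15, 9.05, 8.95 and 9.12 in WT samples 1, 2, 3 and 037. FLT3-ITD 2, 3 and 037 were above every WT sample and FLT3-ITD 1 lay among them, with a difference of 0.26 ± 0.14 (interval -0.05 to 0.57, limma adjusted p = 0.609). Without FLT3-ITD 1 the difference was 0.35 ± 0.13 (limma adjusted p = 0.431). The genotypes then did not overlap, as in 9.7% of all tested genes in either direction. A second, dim probe set of Wdr75, which did not pass the filter, averaged 5.03 in FLT3-ITD and 4.19 in WT without overlap, and the mean over both probe sets differed by 0.55 ± 0.12 (limma adjusted p = 0.0977).

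Wdr43 read 10.02, 10.65, 10.13 and 9.95 in FLT3-ITD samples 1, 2, 3 and 037, and 10.28, 10.06, 10.31 and 9.92 in WT samples 1, 2, 3 and 037. FLT3-ITD 2 was the highest and the other samples were mixed, and the difference was 0.05 ± 0.18 (limma adjusted p = 0.960). Heatr1 differed by -0.05 ± 0.19. Rrp9, a protein of the snoRNP that directs the early cuts of the precursor, read 7.01, 7.07, 6.93 and 7.34 in FLT3-ITD samples 1, 2, 3 and 037, and 7.50, 6.69, 7.22 and 7.80 in WT samples 1, 2, 3 and 037. The WT samples reached both further up and further down than the FLT3-ITD samples, with a difference of -0.21 ± 0.23 (limma adjusted p = 0.825) that was -0.42 without WT 2 and -0.05 without WT 037. The differences of Utp20 and Nop14, factors of the small subunit processome, were 0.09 ± 0.20 and -0.04 ± 0.22, and that of Rrp12, involved in subunit export, was 0.08 ± 0.25. Bysl, the late assembly factor bystin, differed by -0.14 ± 0.35 and had the widest replicate spread of all members, a pooled SD of 0.57, with low values in FLT3-ITD 1 and 3 and in WT 1.

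The 9 remaining members act on the large subunit. Of their 9 differences, 8 were positive (88.9%, against 53.7% of all tested genes), with a median of 0.10 log2 units. Without WT 3, 5 of 9 were positive, and without FLT3-ITD 2, 6 of 9, with a median of 0.01. Without FLT3-ITD 1, 9 of 9 were positive, with a median of 0.14. Pes1, Bop1 and Wdr12 encode the PeBoW complex, which is needed to process the precursor of the large subunit. Pes1 read 8.90, 9.10, 8.84 and 9.70 in FLT3-ITD samples 1, 2, 3 and 037, and 8.52, 8.58, 8.15 and 9.66 in WT samples 1, 2, 3 and 037. Both 037 samples were far above the others of their genotype. Among samples 1, 2 and 3, every FLT3-ITD value was above every WT value, where 15.7% of all tested genes had no overlap in either direction. The difference was 0.41 ± 0.33 with all samples (limma adjusted p = 0.759), 0.53 ± 0.17 without both 037 samples (limma adjusted p = 0.427) and 0.72 ± 0.23 without WT 037 alone (limma adjusted p = 0.406). It was 0.22 without FLT3-ITD 037 and 0.22 without WT 3. With all samples and the sample number as a block in the fit, it was 0.41 ± 0.15 (limma adjusted p = 0.476). Sample numbers pair the arrays only weakly, as given below. The other probe set of Pes1 was dim, averaging 4.74 in FLT3-ITD and 5.13 in WT, and the mean over both differed by 0.01 ± 0.27.

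Differences were smaller in the partners of Pes1, though this was not tested. Bop1 read 7.80, 8.14, 7.68 and 8.14 in FLT3-ITD samples 1, 2, 3 and 037, and 7.52, 7.60, 7.81 and 8.20 in WT samples 1, 2, 3 and 037. WT 037 was the highest and WT 1 and 2 the lowest, for a difference of 0.16 ± 0.19 (limma adjusted p = 0.835). As in Pes1, it was larger without both 037 samples, at 0.23, and without WT 037 alone, at 0.30; it was 0.07 without WT 1. Wdr12 differed by 0.05 ± 0.25, and its highest value was in WT 3. Rrs1, which brings a small ribosomal RNA particle into the large subunit, read 11.36, 11.45, 11.46 and 11.65 in FLT3-ITD samples 1, 2, 3 and 037, and 11.64, 11.49, 11.26 and 11.67 in WT samples 1, 2, 3 and 037. The FLT3-ITD samples lay inside the WT range, with a difference of -0.04 ± 0.14 (limma adjusted p = 0.960).

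Of the remaining large subunit factors, the RNA methyltransferases Ftsj3 and Nop2 differed by 0.24 ± 0.34 and 0.05 ± 0.22. Ftsj3 spread from 8.63 to 10.24 in FLT3-ITD and from 8.85 to 9.69 in WT. Its difference was 0.57 ± 0.24 without FLT3-ITD 1, its lowest sample (limma adjusted p = 0.534), and 0.04 without FLT3-ITD 037, its highest. Nip7, Rrp1b and Nop16, assembly factors of the large subunit, differed by 0.17 ± 0.21, 0.10 ± 0.15 and 0.02 ± 0.15.

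The role groups had medians between -0.01 and 0.10 log2 units. The 3 RNA polymerase I subunits had 2 positive differences, the 6 nucleolar genes 4, the 3 box C/D genes 2, the 3 box H/ACA genes 1 and the 8 small subunit genes 4.

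Arrays of 1 genotype differed from each other in the level of the whole list. Each member was centred on its own mean over the 8 arrays and the 32 were averaged per array. The FLT3-ITD averages were -0.11 in sample 1, 0.11 in sample 2, -0.09 in sample 3 and 0.18 in sample 037, and the WT averages 0.04 in sample 1, -0.15 in sample 2, -0.07 in sample 3 and 0.09 in sample 037. The highest and second highest were both FLT3-ITD, but the other 2 FLT3-ITD arrays lay in the lower part of the WT range. Above their own mean were 24 members on FLT3-ITD 037 and 22 on FLT3-ITD 2, against 6 on FLT3-ITD 1, 11 on FLT3-ITD 3, and 20, 7, 12 and 22 on WT 1, 2, 3 and 037. The same averages over all tested genes stayed between -0.04 and 0.05.

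The 037 arrays often held the highest values of the 32 members. Of the 32 members, 16 had their highest value on a 037 array (10 on FLT3-ITD 037 and 6 on WT 037), against 31.5% of all tested genes. WT 1 was the highest array for 8 members, more than WT 037, against 11.5% and 13.5% of all tested genes. In Nop56, Nop14, Rrp12, Pes1 and Rrs1, the 2 highest values of all 8 were those of the 037 samples. FLT3-ITD 037 also had the largest Gapdh 3′ to 5′ difference, given above, while WT 037 had the smallest of all 8 arrays, at 1.82, and the part of RNA or amplification length was not tested. WT 2, in contrast, was the highest array for 0 members and the lowest for 9.

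**Figure D3:**
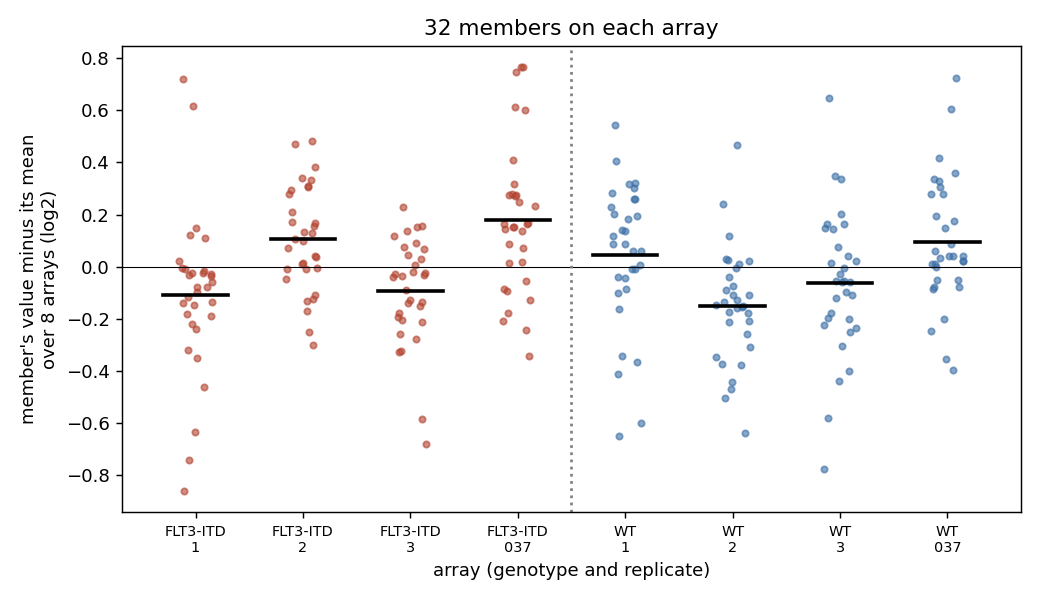
Each member's log2 value on an array minus its own mean over the 8 arrays, for the 4 FLT3-ITD and then the 4 WT arrays, with a black bar at the mean over the 32 members. The bars run between -0.15 in WT 2 and 0.18 in FLT3-ITD 037, and each genotype has arrays on both sides of 0.

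Different probe sets of a member could disagree in direction, and the share of all genes in which they did was not computed. The members had 65 probe sets, and 22 of 32 genes had more than 1. Of 19 genes with at least 2 probe sets above the filter, 7 had only positive differences (Fbl, Nop16, Nop56, Npm1, Polr1e, Wdr12 and Wdr43), 3 only negative ones (Dkc1, Heatr1 and Rrs1), and 9 had both. The 27 other probe sets above the filter differed by -0.301 to 0.359, and 0 of the 59 member probe sets tested passed a limma test over probe sets (lowest adjusted p 0.626). The other 6, the dim ones of Wdr75 and Pes1 among them, were below the filter and not tested. For 6 members the chosen probe set can bind several transcripts by its design name (Fbl, Gar1, Nhp2, Nop56, Polr1e and Rrs1), so a related sequence could share their signal.

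MYC factors, the best known activators of this pathway, bind the E-box CACGTG. Mycn averaged 9.89 ± 0.24 in FLT3-ITD and 7.90 ± 0.37 in WT (SD, n = 4 each), and rose by 1.98 ± 0.21 (SE, limma adjusted p = 0.00385). Its other probe sets differed by 1.05 and 0.21, and the mean over its probe sets, at 1.08 ± 0.40, did not pass (limma adjusted p = 0.380). Myc averaged 11.83 ± 0.19 in FLT3-ITD and 11.51 ± 0.20 in WT (SD, n = 4 each), with a difference of 0.32 ± 0.15 that did not pass (limma adjusted p = 0.561). Of 8 tested genes of the MYC, MAX and MXD family, 6 had positive differences, and Mxd1, which encodes a repressor that pairs with MAX, differed by -0.52 ± 0.20 (limma adjusted p = 0.456).

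Promoter windows of 250 bases before to 50 after the start site (RefSeq, GRCm38.p6) were found for 27 members. Fbl, Bop1, Rrp12, Npm1 and Rrs1 had none in the table used. The E-box CACGTG, which reads the same on both strands, was in the windows of 5 of these 27 genes (18.5%), against 11.9% of tested genes and 8.09% of all genes with a window. The motif TATAAA, searched on both strands, was in 2 (7.41%; Dkc1 and Pes1), against 8.58% of tested genes and 15.7% of all genes. These shares describe letters in a window and not binding. Other forms of the E-box and sites outside the windows were not searched. The E-boxes found follow, 5′ to 3′ on the gene's strand with the motif in capitals, because MYC factors bind this motif.
Pes1, chr11:3963965-3963994, plus strand: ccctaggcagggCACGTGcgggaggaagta
Nop2, chr6:125131811-125131840, plus strand: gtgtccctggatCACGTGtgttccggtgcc
Utp20, chr10:88826765-88826794, minus strand: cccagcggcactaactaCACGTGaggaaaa
Mybbp1a, chr11:72441347-72441376, plus strand: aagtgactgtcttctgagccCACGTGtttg
Wdr43, chr17:71616220-71616249, plus strand: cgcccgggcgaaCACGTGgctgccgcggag

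The E-box of Nop2 began at -60, before its start site, while those of Pes1, Wdr43, Utp20 and Mybbp1a began at 3, 18, 38 and 41 after it. The window of Pes1, the member with the largest difference, is given up to its E-box with both motifs in capitals; its TATAAA begins at -216, far from where a TATA box acts.
Pes1, chr11:3963725-3963982, plus strand: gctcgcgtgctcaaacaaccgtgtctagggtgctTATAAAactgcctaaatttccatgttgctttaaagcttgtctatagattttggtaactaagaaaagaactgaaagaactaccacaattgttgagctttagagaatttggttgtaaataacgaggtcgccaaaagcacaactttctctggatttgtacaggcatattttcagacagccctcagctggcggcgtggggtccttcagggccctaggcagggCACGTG
The 5 members with an E-box had log2 differences of -0.20 for Mybbp1a, 0.05 for Wdr43, 0.05 for Nop2, 0.09 for Utp20 and 0.41 for Pes1, with a median of 0.05. The 22 members with a window and no E-box ran from -0.21 to 0.26 with a median of 0.04. Only Pes1, of the 5, lay above that range.

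The rest of the pathway was read from 5 further lists of 170 tested genes, of which 0 passed (0.604% of all tested genes did). At an unadjusted p below 0.05, 7 were higher (4.12%, against 5.74% of all tested genes) and 2 lower (1.18%, against 3.84%). Positive differences numbered 106 of 170 (62.4%, against 53.7%). Genotypes did not overlap for 1 of 13 other RNA polymerase I genes (lower), and for 1 higher and 1 lower of 48 other small subunit genes. The same held for 1 of 48 other large subunit genes (higher), and for 1 higher and 1 lower of 17 exosome genes. Of 44 ribosomal protein genes, 2 were higher and 2 lower without overlap. Over all tested genes 3.77% were higher and 2.44% lower without overlap. Of the 5 lists, RNA polymerase I transcription had the largest share of negative differences, 11 of 13 other genes, with a median of -0.14 log2 units. FLT3-ITD 1, an array that stood apart, weighed heavily in it, with 12 of the 13 genes below their own mean and an average of -0.41, against -0.01, 0.06 and 0.07 in FLT3-ITD 2, 3 and 037. Without FLT3-ITD 1, 8 of 13 differences were negative and the median was -0.09; their mean was -0.03, against -0.15 with all arrays. Without WT 037, 8 of 13 were negative too, with a mean of -0.10 but a median of -0.18. Its smallest p values were those of Rrn3, the initiation factor that makes the polymerase competent to start, at -0.26 ± 0.12 (limma adjusted p = 0.559, no overlap), and Polr2h, a subunit shared by the nuclear polymerases, at -0.28 ± 0.14 (limma adjusted p = 0.603).

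Of 48 other small subunit genes, 28 had positive differences and the median was 0.03. Utp3, a small subunit processome factor, averaged 10.66 ± 0.12 in FLT3-ITD and 9.85 ± 0.22 in WT (SD, n = 4 each), without overlap. Its difference of 0.80 ± 0.14 just missed the test (limma adjusted p = 0.0546), with adjusted p between 0.0302 and 0.251 over the alternative settings. Pwp2, a factor of the same processome, differed in the other direction without overlap, averaging 7.75 ± 0.08 in FLT3-ITD and 8.36 ± 0.22 in WT (SD, n = 4 each; difference -0.61 ± 0.14, limma adjusted p = 0.137).

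Of 48 genes listed as other large subunit genes, 32 had positive differences and the median was 0.04. The list also held Nop10, a core protein of the box H/ACA snoRNP, at 0.08 ± 0.13 (limma adjusted p = 0.891). The smallest p values belonged to the helicase Ddx54, at 0.89 ± 0.28 (limma adjusted p = 0.334, no overlap), and to Sbds, which helps to release a late assembly factor from the large subunit, at -0.43 ± 0.18 (limma adjusted p = 0.508). The 17 RNA exosome and trimming genes, which digest processed precursor, had 12 positive differences and a median of 0.07. Exosc5 was at 0.30 ± 0.12 (limma adjusted p = 0.464, no overlap) and Exosc7 at -0.36 ± 0.17 (limma adjusted p = 0.543, no overlap). Of 44 tested cytosolic ribosomal protein genes, 32 had positive differences and the median was 0.05. In that list Rps27l, a relative of Rps27 known as a p53 target, differed by 0.45 ± 0.15 (limma adjusted p = 0.382, no overlap) and Rpl14 by 0.54 ± 0.22 (limma adjusted p = 0.483).

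**Figure D4:**
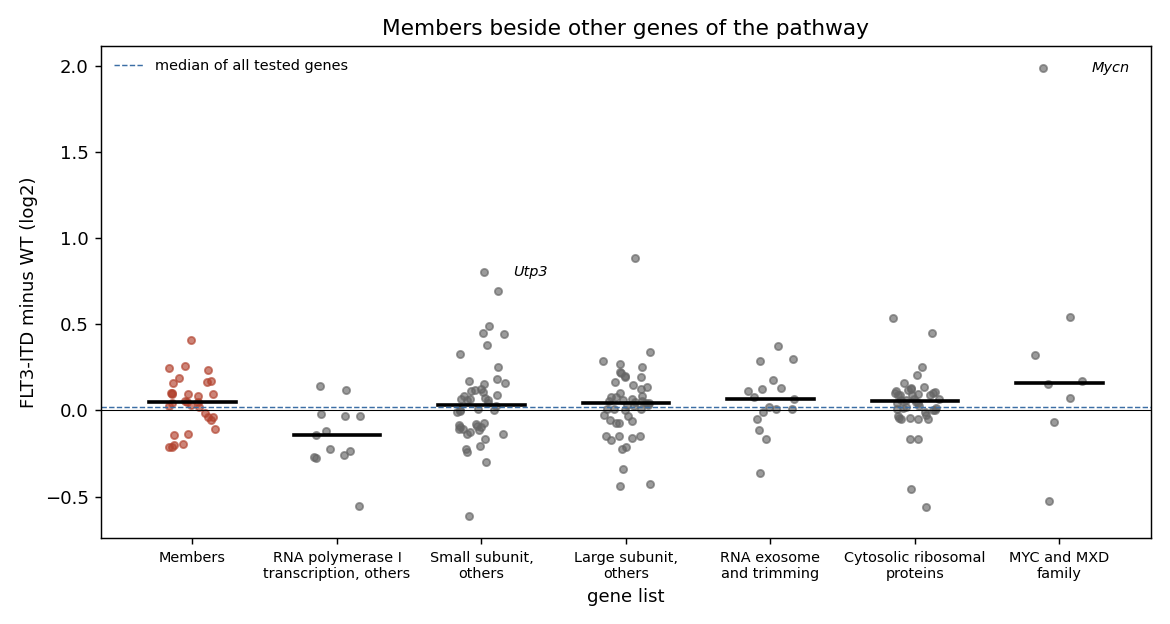
Log2 differences, FLT3-ITD minus WT, of the 32 members, the 5 further lists and the MYC, MAX and MXD family, 1 point per tested gene. A black bar marks each list's median and a dashed line the median of all tested genes (0.02). Medians of the 5 further lists run between -0.14 for other RNA polymerase I transcription genes and 0.07 for the exosome list. That of the MYC, MAX and MXD family is 0.16.

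Cell growth and division are linked to this pathway, and 0 of 20 tested proliferation genes passed, with 8 positive differences and a median of -0.08. The largest of these 20 differences was 0.53 for Plk1 (limma adjusted p = 0.369), against 0.41 among the 32 ribosome biogenesis genes. The lowest was -0.41 for Tpx2 (limma adjusted p = 0.507). Tpx2 was the 1 of 20 lower without overlap (2.44% of all tested genes were), and 0 were higher without overlap (3.77%).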

How the data were processed

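Trizol-extracted RNA from 4 FLT3-ITD and 4 WT samples was biotin-labelled after amplification (NuGEN WT-Ovation Pico), per the labels' protocols. Each deposited value is the log2 expression of a probe set, made by the authors with RMA, per the submitters' processing notes, the version not being given in the sources used here. RMA is a method of background correction, quantile normalization and probe summary. RMA values hold no scanner background or depth, so the number of arrays limits the precision. Array medians were 5.98 to 6.05.

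Of 45101 probe sets, 34945 were annotated to 1 gene, 932 to several and 9160 to none; 64 controls were left out. Symbols of 34741 were updated through Entrez IDs. The probe set with the highest mean stood for a gene, tested if at least 4 of 8 arrays had it above their median. Testing used limma 3.58.1 in R 4.3.3, FLT3-ITD minus WT, with Benjamini-Hochberg adjustment over 10762 genes and a threshold of 0.05. The fit was tested on simulated data. All members are named; values by sample are given for the 10 smallest p and the highest mean in each role group, and for the further lists the 2 smallest p. The members and lists were chosen with earlier results of these data known. Alternatives covered the replicate block, scaling, filter, probe-set choice, variance settings and left-out samples.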

Additional observations from a re-analysis of the deposited data

Results flagged for a closer look

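In 66 groups of 4 samples checked for a sample far from the others (Dixon's 95% limit, which chance passes in about 1 in 20 groups), 4 were found among the members. Nop56 was high in FLT3-ITD 037, at 12.05, with the other FLT3-ITD samples between 11.78 and 11.79. Ncl was low in the same sample, at 12.63, with the others between 12.85 and 12.89. Nhp2 was low in FLT3-ITD 1, at 9.90, with the others between 10.73 and 10.79. Bysl was low in WT 1, at 6.99, with the others between 7.83 and 7.92.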

How the results depend on the processing

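Under all 19 alternatives 0 members passed the test, the lowest adjusted p being 0.0977 for Wdr75 with the mean over all probe sets, and the median member difference stayed between 0.012 and 0.076. Fewer than the 65 genes of the main result passed with the replicate block (22), with values above the median on all 8 arrays (25), without both 037 samples (31, an alternative chosen after seeing the data), and without 1 replicate (30 to 59); the cause was not tested, beyond the fewer samples or genes. Sample numbers pair the samples weakly, with correlations of deviations of 0.027, 0.037, 0.065 and 0.110 for 1, 2, 3 and 037, and replicate 2 correlated best with another number, so the block rests on a number only. Members without overlap numbered 1 in the main result (6.22% of all genes), 4 with samples 1 and 037 averaged (16.2% of all genes), 3 without both 037 samples (15.7%), 0 with arrays centred (6.5%) and 1 to 2 without 1 replicate (8.74% to 10.9%). Positive member differences numbered 17 to 24 of 32 without 1 replicate. Of the further lists, 1 gene (Utp3) passed with arrays centred (adjusted p 0.0477), the probe-set mean (0.0318), trend and robust variance (0.0306) and array weights (0.0302). Member differences changed sign 52 times, in 19 members, all at most 0.211 in size. With the mean over all probe sets these were Polr1a at 0.0671, Nolc1 at -0.0924 and Ddx21 at -0.0203. With array weights they were Polr1e at -0.0575, Heatr1 at 0.0216 and Nop14 at 0.0560. With arrays centred it was Dkc1 at 0.0035, and without _s_at and _x_at probe sets, where Gar1 was not tested, Nhp2 at 0.00617. With samples 1 and 037 averaged they were Heatr1 at 0.0269, Nop14 at 0.0174, Wdr12 at -0.00608 and Rrs1 at 0.000876, and without both 037 samples Utp20 at -0.103. Without 1 replicate, Ftsj3 ran from 0.0364 to 0.573 and Rrp9 from -0.416 to -0.0451, keeping their signs, and the differences of members that changed sign ran from -0.0257 to 0.228 for Polr1b, -0.0204 to 0.375 for Polr1e, -0.00614 to 0.427 for Nolc1, -0.0268 to 0.119 for Ddx21, -0.0950 to 0.0752 for Dkc1, -0.00589 to 0.111 for Gar1, -0.294 to 0.0118 for Nhp2, -0.106 to 0.126 for Wdr43, -0.211 to 0.0295 for Heatr1, -0.0903 to 0.194 for Utp20, -0.168 to 0.112 for Nop14, -0.107 to 0.236 for Rrp12, -0.421 to 0.0466 for Bysl, -0.0803 to 0.268 for Wdr12, -0.0817 to 0.116 for Nop16, -0.0767 to 0.170 for Nop2, -0.122 to 0.0150 for Rrs1 and -0.000696 to 0.329 for Nip7. The 4 arrays per genotype limit what can be detected, and signal over background was not analysed here.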
